A study of Mus musculus with 8 samples.

Results

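The genes described here encode the enzymes of the tricarboxylic acid (TCA) cycle, the steps that bring pyruvate into it, and the reactions that refill it or draw carbon from it. They are a list of gene names, and all 38 were among the 14012 genes of the count table. No measured value entered the rule, but the list was drawn up with earlier results of these data known. RNA from quadriceps femoris muscle of mice was sequenced from 8 animals, 4 per group. The group labelled knockout, Grpel1 skm-/-, carried loxP-flanked Grpel1 alleles and HSA-Cre-ERT2, a tamoxifen-activated Cre recombinase under the human skeletal muscle alpha-actin promoter. The group labelled control, Grpel1 flox/flox, carried the flanked alleles with no Cre named in its labels. The labels record the treatment of both groups as none. The study describes tamoxifen induction of the knockouts in young mice, and it uses both untreated floxed littermates and floxed mice given the drug as controls. Which of these were sequenced is not stated, so recombination and the drug cannot be told apart. The study describes male mice that were collected when weight loss reached its endpoint, within weeks of induction, and the labels give no age for the single animals. Grpel1 encodes a nucleotide exchange factor of mitochondrial HSP70, the motor that pulls precursor proteins into the matrix. Because the Cre acts in muscle fibres, other cells of the tissue keep the gene.

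Each library held 16017565 to 18813042 counts in the group labelled control and 16424608 to 20361144 counts in the group labelled knockout. Levels are given as CPM, read counts relative to library size, with library sizes scaled by the trimmed mean of M values (TMM). Grpel1 itself (chr5:36465185-36474077, GRCm38) was at 69.6, 71.2, 68.8 and 64.1 against 69.1, 71.9, 60.3 and 59.9 CPM, and its level did not pass the test (log2 fold change -0.066, SE 0.078, edgeR adjusted p = 0.49). The counts are summed over all exons and so do not show the recombined exons, and the directions below rest on the labels. Where 4 values stand in a row they are replicates 1 to 4 of a group, the group labelled control first, and changed means an edgeR adjusted p under 0.01 over the 14012 genes, the threshold of the study. Libraries are named by label and replicate number. The replicates are separate mice, so the tests set the groups against the spread between animals.

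The library labelled control replicate 3 stood apart in fat cell RNA. The summed level of 7 adipocyte markers (Adipoq, Plin1, Cidec, Lep, Fabp4, Retn and Cfd) was 1497, 996, 249 and 1462 CPM in the libraries labelled control and 2591, 1447, 712 and 1553 CPM in those labelled knockout. None of the 7 was at 0 in any library and none passed the test. Markers of muscle fibres, vessels and fibroblasts differed between the groups. Of 6 skeletal muscle markers, 4 were lower (Ckm, Acta1, Myh4 and Mb), 1 was higher (Myh1) and 1 did not pass (Myh2). Their sum ranged from 156525 to 200229 CPM in the group labelled control and from 48789 to 72933 CPM in the group labelled knockout. Myh4 weighed most in the control sum, with group means of 103899 against 20582 CPM, while those of Myh1 were 7246 against 16074 CPM. All 4 endothelial markers were lower (sums 233 to 344 against 167 to 187 CPM), 3 of 4 fibroblast markers were lower (1266 to 1778 against 491 to 728 CPM) and 1 of 6 macrophage markers, Cd68, was higher (sums 42.6 to 112 against 101 to 184 CPM). When library totals alone replaced TMM, the skeletal muscle counts stayed at 4 lower and 1 higher, none of the endothelial and 1 of the fibroblast markers was called lower, and 6 of 6 macrophage markers were called higher. Most of all genes were called higher under that scaling. In whole tissue, fewer cells of a type and less RNA per cell cannot be told apart.

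The TCA cycle runs in the mitochondrial matrix. Acetyl groups join oxaloacetate to form citrate, and successive oxidations return oxaloacetate while they deliver NADH and reduced flavin to the respiratory chain, which makes the cycle a main source of ATP in working muscle. Pyruvate from glycolysis crosses the inner membrane through the MPC1-MPC2 carrier and is turned into acetyl-CoA by the pyruvate dehydrogenase complex. Kinases (PDK1 to PDK4) switch that complex off by phosphorylation, and phosphatases switch it on again. Most of these enzymes are made in the cytosol and imported into the matrix.

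Of the 38 genes, 19 were lower and 4 were higher in the libraries labelled knockout, and 15 did not pass the test. Over all genes, 44.7% were called, 21.1% lower and 23.6% higher, so that the share called lower among the 38 stood above the background and the share called higher below it. The counts of called genes in each part and list below are to be read beside these shares over all genes. The median log2 fold change was -0.48 over the 38 genes and 0.065 over all 14012. The CPM of the groups did not overlap for 21 genes that lay below and 5 that lay above in the libraries labelled knockout, where 24.4% and 29% of all genes did so. Split by compartment, with no test between the parts, the counts were as follows. Among the 32 genes for mitochondrial proteins, 19 were lower, 3 were higher and 10 did not pass, with a median log2 fold change of -0.54. Among the 6 genes for cytosolic enzymes none was lower and 1 was higher, with a median of 0.29, shares near or below those over all genes. DESeq2, the tool the study used, called 23 lower and 6 higher, adding Mdh1, Dlat, Pdk1 and Glud1 on the lower side and Pdhb and Acly on the higher side.

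These counts depend on how libraries are scaled. TMM factors were 0.75 to 0.84 in the group labelled control and 1.19 to 1.33 in the group labelled knockout, and the 38 genes held 1.01% to 1.22% and 1.02% to 1.39% of all counts. Scaled to library totals alone, 7 of the 38 were lower and 14 were higher, while the median of all genes moved from 0.065 to 0.73 and 8498 genes were called higher against 873 lower. All counts under library totals, above and below, are to be read beside these 8498 of 14012 genes. Relative to the median of all genes, 25 of the 38 lay below it under both scalings, and each of the 38 lay on the same side of it under both. By definition as many of all genes lie below that median as above it. The change of scaling moves all genes by nearly the same amount, so the sides could hardly differ and are no check on it. The 7 called lower under both were Idh3a, Sucla2, Suclg1, Mdh2, Me3, Pdk4 and Pdpr.

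**Figure D1:**
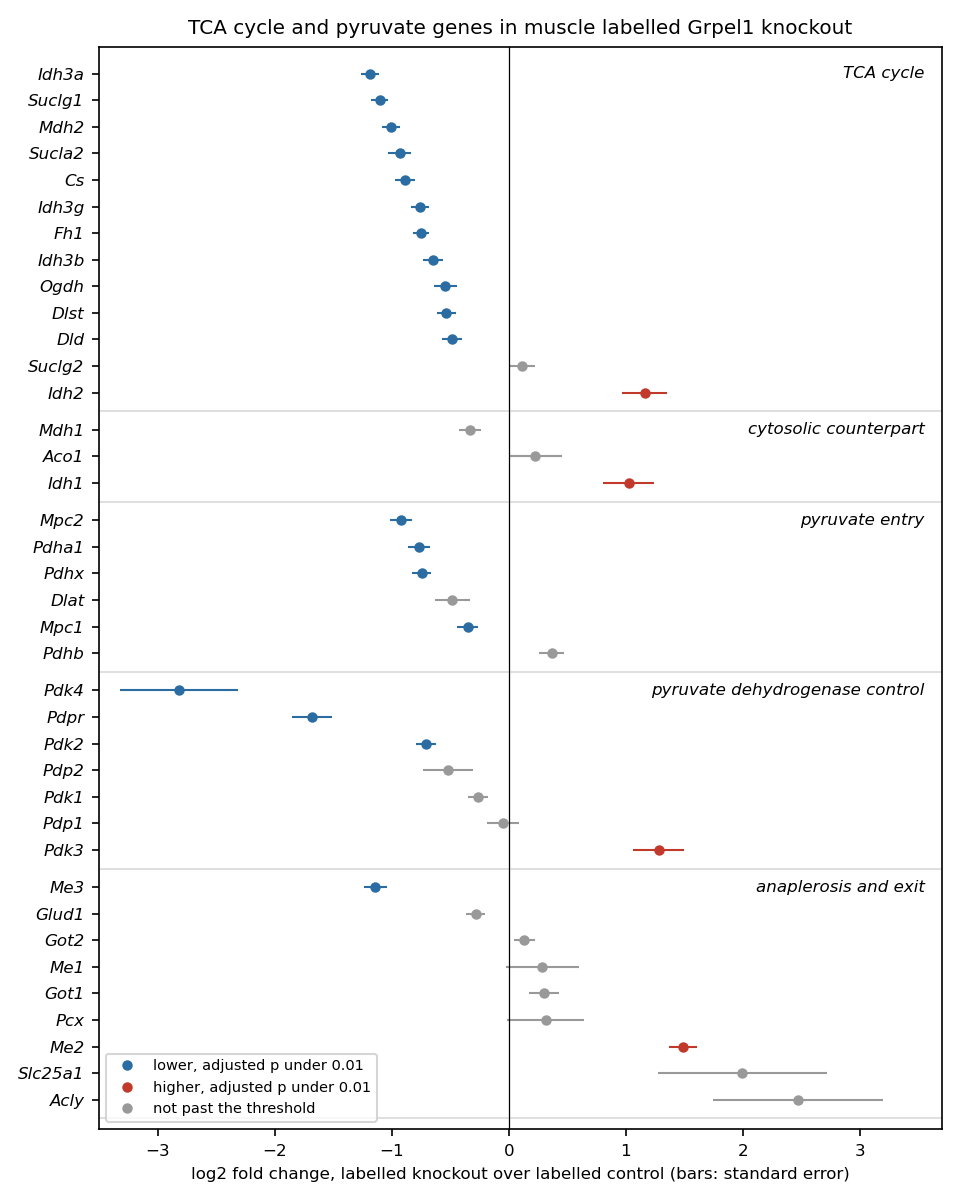
Log2 fold change (x axis, libraries labelled knockout over those labelled control, TMM scaling) of each of the 38 genes, grouped by role. Bars are the standard error derived from the edgeR F statistic, with 4 libraries per group. Of the 13 TCA cycle genes, 11 lie below 0 and past the threshold, from -1.19 for Idh3a to -0.48 for Dld, and Idh2 is at 1.16. With library totals alone, Idh3b, Ogdh, Dlst and Dld lie above 0.

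The enzymes of the cycle itself were mostly lower. Of 13 genes, 11 fell, 1 rose and 1 did not pass, and the median log2 fold change was -0.75. With library totals alone 4 of the 13 were lower and 2 higher, the median was -0.079, and Idh3b, Ogdh, Dlst and Dld lay above 0 (0.022, 0.12, 0.14 and 0.19). The 11 that fell stood at 43.8% to 71.5% of their level in the group labelled control, with edgeR adjusted p from 1.2e-06 to 9.4e-04.

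Citrate synthase, encoded by Cs (chr10:128337832-128362479), joins acetyl-CoA to oxaloacetate at the entry of the cycle and is a common measure of mitochondrial content. Its level was 1045 ± 40.9 against 564 ± 46.2 CPM (SD, n = 4 each; log2 fold change -0.89, SE 0.083, edgeR adjusted p = 1.2e-05).

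The NAD-dependent isocitrate dehydrogenase is an assembly of a catalytic alpha subunit with beta and gamma subunits, and all 3 genes were lower. The catalytic subunit showed the largest fall of the cycle. Idh3a (chr9:54586511-54604662) stood at 806, 849, 857 and 794 CPM in the libraries labelled control and 391, 369.6, 355 and 334 CPM in those labelled knockout (log2 fold change -1.19, SE 0.077, edgeR adjusted p = 1.2e-06). The groups were well separated, with the highest library labelled knockout below the lowest labelled control. Idh3b and Idh3g had log2 fold changes of -0.65 and -0.76 (SE 0.086 and 0.076, edgeR adjusted p = 1.2e-04 and 1.8e-05). Idh3b overlaps Nop56, a gene on the opposite strand, whose mean count was 663 against 7961 for Idh3b, and use of strand in the counting is not stated.

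The 2-oxoglutarate dehydrogenase complex, which forms succinyl-CoA, is built from Ogdh, Dlst and Dld. Its 3 genes moved within a narrow range, with log2 fold changes of -0.54, -0.53 and -0.48 (SE 0.081 to 0.095, edgeR adjusted p = 7.6e-04, 2.9e-04 and 9.4e-04). Dld also serves the pyruvate dehydrogenase complex.

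Succinyl-CoA ligase pairs the common alpha subunit Suclg1 with 1 of 2 beta subunits. Sucla2 makes the ADP-dependent enzyme and Suclg2 the GDP-dependent enzyme. Suclg1 was at 305, 340.1, 329 and 306 CPM in the libraries labelled control and 164, 145, 146 and 140.3 CPM in those labelled knockout (log2 fold change -1.10, SE 0.076, edgeR adjusted p = 1.6e-06). Sucla2 was at 571, 634, 671 and 585 against 345, 274, 350.3 and 321 CPM (log2 fold change -0.93, SE 0.098, edgeR adjusted p = 2.4e-05). The libraries did not overlap for either gene. Suclg2 was the one TCA cycle gene that did not pass, at 53.3, 72.9, 68.8 and 59.4 against 75.1, 60.9, 70.4 and 69.2 CPM (log2 fold change 0.12, SE 0.11, edgeR adjusted p = 0.37), and its groups overlapped.

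Fumarase and mitochondrial malate dehydrogenase close the cycle. Fh1 was at 292 ± 14.4 against 174 ± 9.28 CPM (SD, n = 4 each; log2 fold change -0.75, SE 0.07, edgeR adjusted p = 1.1e-05). Mdh2 (chr5:135778649-135790386), which oxidises malate to oxaloacetate in the matrix, was at 710.0, 841, 780.4 and 757 CPM in the libraries labelled control and 402, 383, 388 and 365 CPM in those labelled knockout (log2 fold change -1.01, SE 0.078, edgeR adjusted p = 3.6e-06). Its highest library labelled knockout was well below its lowest labelled control.

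Idh2 (chr7:80094846-80115350) was the exception that rose. It encodes the mitochondrial NADP-dependent isocitrate dehydrogenase, which makes NADPH in the matrix instead of NADH. Its level was 62.5, 128, 114 and 111 CPM in the libraries labelled control and 218, 206, 241 and 264 CPM in those labelled knockout (log2 fold change 1.16, SE 0.19, edgeR adjusted p = 5.0e-04). All libraries labelled knockout lay above all labelled control, and control replicate 1 was the lowest of its group. Per length of transcript, Idh2 was at 61.5 ± 16.8 against 134 ± 15.8 FPKM while Idh3a was at 347 ± 12.6 against 148 ± 9 FPKM (SD, n = 4 each), so the mean levels of the 2 genes were near each other in the libraries labelled knockout. These FPKM values (fragments per kilobase of exon, scaled per library) are those deposited.

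Promoter windows of 4 genes are printed here because these genes gave the largest fall (Pdk4), the rise within the cycle (Idh2) and 2 of the lower genes whose window held a motif searched for (Idh3g and Me3). Each is the 250 bases before the RefSeq start in GRCm38.p6, written 5′ to 3′ on the strand of the gene, with motif matches in capitals. Pdk4 is chr6:5496279-5496528 (- strand), Idh2 is chr7:80115351-80115600 (- strand), Idh3g is chrX:73786898-73787147 (- strand) and Me3 is chr7:89632568-89632817 (+ strand).
Pdk4: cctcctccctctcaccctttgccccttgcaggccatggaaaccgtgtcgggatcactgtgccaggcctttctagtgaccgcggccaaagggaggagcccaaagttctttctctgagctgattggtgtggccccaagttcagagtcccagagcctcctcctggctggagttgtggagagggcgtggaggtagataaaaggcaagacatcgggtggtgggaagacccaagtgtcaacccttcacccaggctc
Idh2: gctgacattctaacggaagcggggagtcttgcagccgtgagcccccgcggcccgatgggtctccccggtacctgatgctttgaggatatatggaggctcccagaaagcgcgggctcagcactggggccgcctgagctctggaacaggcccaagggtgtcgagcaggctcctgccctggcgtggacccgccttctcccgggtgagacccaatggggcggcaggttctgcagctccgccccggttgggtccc
Idh3g: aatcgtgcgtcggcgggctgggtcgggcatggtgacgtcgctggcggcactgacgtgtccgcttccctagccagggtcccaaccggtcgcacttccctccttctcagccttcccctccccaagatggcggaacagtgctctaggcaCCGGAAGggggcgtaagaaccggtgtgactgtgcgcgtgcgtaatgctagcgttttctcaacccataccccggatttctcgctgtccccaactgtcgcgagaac
Me3: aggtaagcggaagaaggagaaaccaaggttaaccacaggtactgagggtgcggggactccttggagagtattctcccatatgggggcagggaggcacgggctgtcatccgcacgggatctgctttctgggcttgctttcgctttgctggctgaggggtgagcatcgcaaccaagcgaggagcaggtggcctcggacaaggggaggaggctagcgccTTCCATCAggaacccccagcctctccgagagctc

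Windows were found for 35 of the 38 genes, 46 windows in all. On both strands, AAGGTCA (the core site of estrogen-related receptors) was in 2.17% of the 46 and in 4.08% of 32851 windows of all genes. CCGGAAG (the ETS motif bound by GABPA) was in 6.52% against 6.91%, in Glud1, Idh3g and Mpc1. The ATF4 element TGATGNAA was in 4.35% against 3.45%, in Got1 and Me3. GCATGCGC (the core of the NRF1 site) was in 6.52% against 2.26%, 3 windows of Glud1 and Ogdh, of which the 2 Ogdh windows overlap. No match of one motif overlapped a match of another. In Idh3g the ETS match lay 104 to 98 bases before the start, and in Me3 the ATF4 match lay 34 to 27 bases before it, as TTCCATCA on the strand shown. The windows of Pdk4 and Idh2 held none of the 4.

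Cytosolic counterparts of cycle enzymes are encoded by Aco1, Idh1 and Mdh1. Of these 3 genes, 1 rose and 2 did not pass, where 23.6% of all genes were called higher. With library totals alone all 3 were called higher, as most of all genes were. Idh1, the cytosolic NADP-dependent isocitrate dehydrogenase, was at 28.1, 23.5, 14.2 and 29.4 CPM in the libraries labelled control and 59.9, 49.96, 35.5 and 48.3 CPM in those labelled knockout (log2 fold change 1.02, SE 0.22, edgeR adjusted p = 0.0026). Every library labelled knockout was above every library labelled control, and control replicate 3, lowest in adipocyte markers, was also lowest here. With the adipocyte markers as a covariate its log2 fold change was 0.68 (edgeR adjusted p = 2.4e-04).

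Aco1, the cytosolic aconitase that doubles as an iron-responsive RNA-binding protein, was at 37.4, 39.1, 27.3 and 40.5 against 56.3, 49, 24.9 and 38.8 CPM (log2 fold change 0.23, SE 0.22, edgeR adjusted p = 0.41). Its groups overlapped, and its log2 fold change was -0.059 with the adipocyte covariate. Mdh1, the cytosolic malate dehydrogenase of the malate-aspartate shuttle, was at 505, 595, 495 and 484 against 434, 366, 419 and 436 CPM (log2 fold change -0.33, SE 0.093, edgeR adjusted p = 0.012). It passed with DESeq2 (adjusted p = 4.4e-04), its groups did not overlap, and it lay on the other side of 0 (0.34) with library totals alone.

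Genes that bring pyruvate into the cycle were mostly lower. Of the 6 genes of the pyruvate carrier and the dehydrogenase complex, 4 fell and 2 did not pass, where 21.1% of all genes were called lower. The median log2 fold change of the 6 was -0.61. Under library totals alone none of the 6 was called lower, Pdhb was called higher (1.03), and Mpc1 and Dlat lay above 0 (0.32 and 0.19).

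The carrier is a dimer of MPC1 and MPC2, and the 2 genes fell unequally. Mpc2 (chr1:165461208-165481214) was at 239, 236, 234 and 229 CPM in the libraries labelled control and 148, 124, 109 and 113 CPM in those labelled knockout (log2 fold change -0.92, SE 0.096, edgeR adjusted p = 2.3e-05). Mpc1 was at 103, 97.5, 103 and 103 against 93.7, 78, 68.6 and 78.2 CPM (log2 fold change -0.35, SE 0.091, edgeR adjusted p = 0.0074). No libraries overlapped for either gene, but Mpc1 was the 1 call of the 23 that did not hold in each fit with a library left out. The Mpc1 call held in only 2 of those fits, without knockout replicate 1 or without knockout replicate 3, and was lost in the others. Its edgeR adjusted p rose to at most 0.018, and its log2 fold change stayed between -0.45 and -0.32.

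The dehydrogenase core is a heterotetramer of 2 alpha and 2 beta subunits, encoded here by Pdha1 and Pdhb. Pdha1, the alpha subunit that carries the regulatory phosphorylation sites, was at 829.5 ± 6.11 against 488 ± 63.5 CPM (SD, n = 4 each; log2 fold change -0.77, SE 0.096, edgeR adjusted p = 8.3e-05). Pdhb, the beta subunit, was at 305, 329, 309.7 and 325 CPM in the libraries labelled control and 469.9, 452, 347 and 366 CPM in those labelled knockout (log2 fold change 0.37, SE 0.11, edgeR adjusted p = 0.013). Pdhb did not pass with edgeR and TMM scaling (DESeq2 adjusted p = 0.0064), though every library labelled knockout was above every library labelled control. It was called higher with edgeR under upper-quartile factors, without knockout replicate 3, and under library totals, where most of all genes were called higher. Per exon length, the ratio of Pdhb to Pdha1 was 0.701 to 0.769 in the libraries labelled control and 1.53 to 1.83 in those labelled knockout. That ratio was chosen after its values were seen and was not tested.

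Dlat, the acetyltransferase core, was at 322, 332, 311 and 324 against 286, 269, 169 and 199 CPM (log2 fold change -0.48, SE 0.15, edgeR adjusted p = 0.019). It did not pass with edgeR although its groups were apart (DESeq2 adjusted p = 0.0012), and knockout replicates 3 and 4 were lower than 1 and 2. Pdhx, which anchors DLD to that core, was at 107 ± 6.94 against 64 ± 5.82 CPM (SD, n = 4 each; log2 fold change -0.74, SE 0.082, edgeR adjusted p = 3.6e-05).

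The regulators of the complex held the largest fall of the list. Of 7 genes, 3 fell, 1 rose and 3 did not pass, where 21.1% and 23.6% of all genes were called lower and higher. With library totals alone 2 fell and 3 rose, where most of all genes were called higher. Pdk4 (chr6:5483351-5496278), the kinase that rises in fasted muscle and spares glucose, was at 1569, 2680.3, 2479.7 and 2002 CPM in the libraries labelled control and 534, 88.1, 446 and 170.4 CPM in those labelled knockout (log2 fold change -2.82, SE 0.5, edgeR adjusted p = 8.4e-04). Its fitted level was 14.2% of that in the group labelled control, 7.05-fold lower. The libraries labelled knockout were far apart among themselves, yet the highest of them was below the lowest labelled control.

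Pdk2, the other abundant kinase of muscle, was at 536, 547, 607 and 551 against 357, 314, 381 and 320.1 CPM (log2 fold change -0.71, SE 0.086, edgeR adjusted p = 6.9e-05). With library totals alone its log2 fold change was -0.042 and was no longer called. Pdk1 was at 75.5, 82, 86.7 and 84 against 76.6, 72.2, 61.3 and 62.8 CPM (log2 fold change -0.27, SE 0.087, edgeR adjusted p = 0.023), and its groups overlapped. RLE factors and DESeq2 called Pdk1 lower, while library totals alone called it higher (0.40, edgeR adjusted p = 0.0041), as most of all genes were. Pdk3, barely expressed in this tissue, was at 0.727, 0.982, 1 and 1.01 against 2.08, 2.98, 1.98 and 2.11 CPM (log2 fold change 1.28, SE 0.22, edgeR adjusted p = 6.3e-04), which rests on 9 to 16 counts per library labelled control and 48 to 65 per library labelled knockout.

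The mix of kinase transcripts differed accordingly. Of the summed FPKM of the 4 kinases, Pdk4 made up 64.4% to 75.0% in the libraries labelled control and 14.2% to 47.1% in those labelled knockout. Pdk2 made up 23.4% to 33.5% and 48.1% to 77.2%. Pdk4 went from the highest mean FPKM of the 38 genes (638) to rank 22 (88.1), and Mdh2 led in the libraries labelled knockout (294), followed by Pdhb (269).

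On the phosphatase side the change was in the regulatory subunit. Pdpr (chr8:111094745-111135144), the subunit that lowers the activity of the PDP1 phosphatase, was at 50.8, 40.8, 51.1 and 32.1 CPM in the libraries labelled control and 11.6, 16.6, 14.8 and 11.4 CPM in those labelled knockout (log2 fold change -1.68, SE 0.17, edgeR adjusted p = 2.1e-05). The groups did not overlap. A gene on the opposite strand, 9430091E24Rik, overlaps Pdpr with a mean count of 202 against 470.5. The catalytic subunits did not pass: Pdp1 was at 72.9, 60.0, 61.7 and 59.3 against 58.3, 52.7, 81.1 and 52.9 CPM (log2 fold change -0.051, SE 0.14, edgeR adjusted p = 0.77), and Pdp2 was at 6.3, 7.33, 6.08 and 5.61 against 5.84, 4.95, 2.77 and 4.09 CPM (log2 fold change -0.52, SE 0.21, edgeR adjusted p = 0.056). Both overlapped between groups, and with library totals alone both lay above 0 (0.61 and 0.15). Only Pdp1 was called higher there (edgeR adjusted p = 9.2e-04), as most of all genes were.

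**Figure D2:**
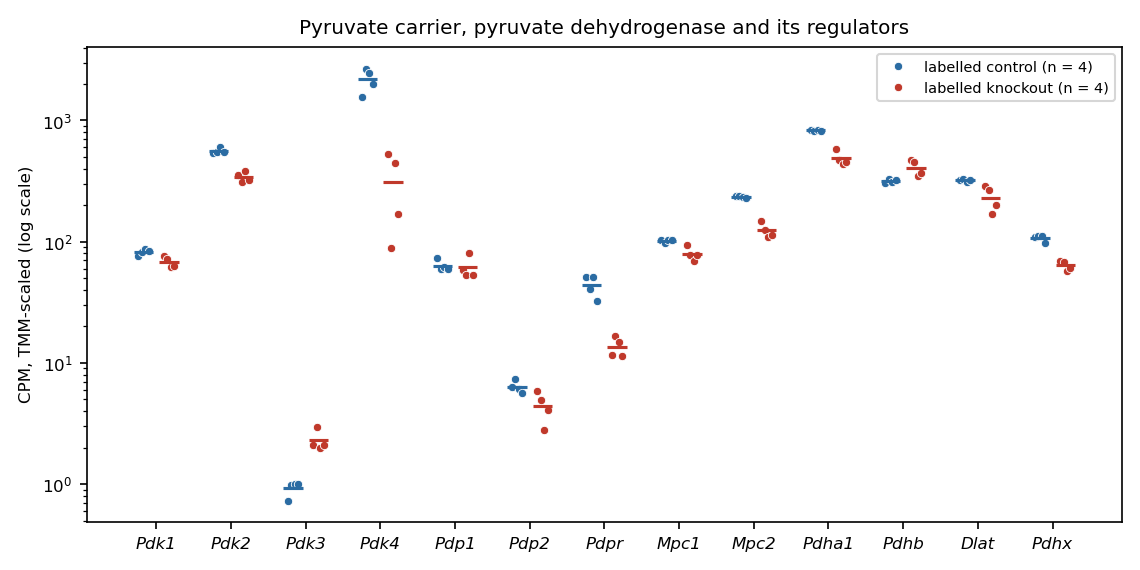
CPM (y axis, log scale, TMM-scaled) of the genes for the 4 kinases, 3 phosphatase subunits, 2 carrier subunits and 4 dehydrogenase subunits. Each point is 1 of 4 libraries per group and the line is the mean. Pdk4 lies at 1569 to 2680 in the libraries labelled control and at 88.1 to 534 in those labelled knockout and Pdk3 at 0.727 to 1.01 and 1.98 to 2.98. The points of Pdhb labelled knockout lie above those labelled control, and with library totals alone Mpc1, Dlat, Pdk1, Pdp1 and Pdp2 would lie higher in the libraries labelled knockout on average.

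Ratios between related genes within a library do not depend on the scaling. For 8 pairs the log2 ratio of counts per exon base was compared between the groups, and 5 pairs passed an exact two-sided permutation test at an adjusted p under 0.05. The smallest p that 4 against 4 libraries allow is 0.0286. All 5 had this p, which is reached whenever the ratios of the groups do not overlap. Of all single genes, 24.4% lay below and 29% above without overlap of CPM, and pairs of other genes were not compared.

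The pair of malate dehydrogenases shifted toward the cytosolic gene. Mdh1/Mdh2 was 0.415 to 0.465 in the libraries labelled control and 0.625 to 0.782 in those labelled knockout (difference of log2 ratios 0.68, SE 0.08, exact permutation p = 0.0286, 0.0457 adjusted over the 8 pairs). Me1/Me3, cytosolic over mitochondrial NADP-dependent malic enzyme, was 5.53 to 7.08 in the libraries labelled control and 7.91 to 28.8 in those labelled knockout (difference of log2 ratios 1.28, SE 0.39, exact permutation p = 0.0286, 0.0457 adjusted over the 8 pairs). Both ratios were higher in every library labelled knockout than in any labelled control.

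Within succinyl-CoA ligase, Sucla2/Suclg2 was 15.7 to 19.3 in the libraries labelled control and 8.11 to 8.98 in those labelled knockout (difference of log2 ratios -1.06, SE 0.069, exact permutation p = 0.0286, 0.0457 adjusted over the 8 pairs). Sucla2 was the more abundant transcript per length in every library, and Suclg2 made up 4.91% to 5.98% of the beta subunit FPKM in the libraries labelled control and 10.0% to 11.0% in those labelled knockout. Mpc1/Mpc2 was 0.389 to 0.426 in the libraries labelled control and 0.591 to 0.65 in those labelled knockout (difference of log2 ratios 0.57, SE 0.044, exact permutation p = 0.0286, 0.0457 adjusted over the 8 pairs). Pdk4/Pdk2 was 1.92 to 3.21 in the libraries labelled control and 0.184 to 0.979 in those labelled knockout (difference of log2 ratios -2.42, SE 0.57, exact permutation p = 0.0286, 0.0457 adjusted over the 8 pairs), and so fell from above 1 in every library labelled control to below 1 in every library labelled knockout.

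The other 3 pairs did not pass. Idh1/Idh2 was 0.0875 to 0.315 in the libraries labelled control and 0.103 to 0.192 in those labelled knockout (difference of log2 ratios -0.16, SE 0.44, exact permutation p = 0.771, 0.771 adjusted over the 8 pairs), and its direction turned without control replicate 1 (0.17) or knockout replicate 3 (0.0053). Got1/Got2 was 0.87 to 0.997 in the libraries labelled control and 0.941 to 1.16 in those labelled knockout (difference of log2 ratios 0.17, SE 0.086, exact permutation p = 0.0857, 0.114 adjusted over the 8 pairs). Pdp1/Pdp2 was 6.41 to 9 in the libraries labelled control and 7.85 to 22.7 in those labelled knockout (difference of log2 ratios 0.50, SE 0.37, exact permutation p = 0.2, 0.229 adjusted over the 8 pairs).

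**Figure D3:**
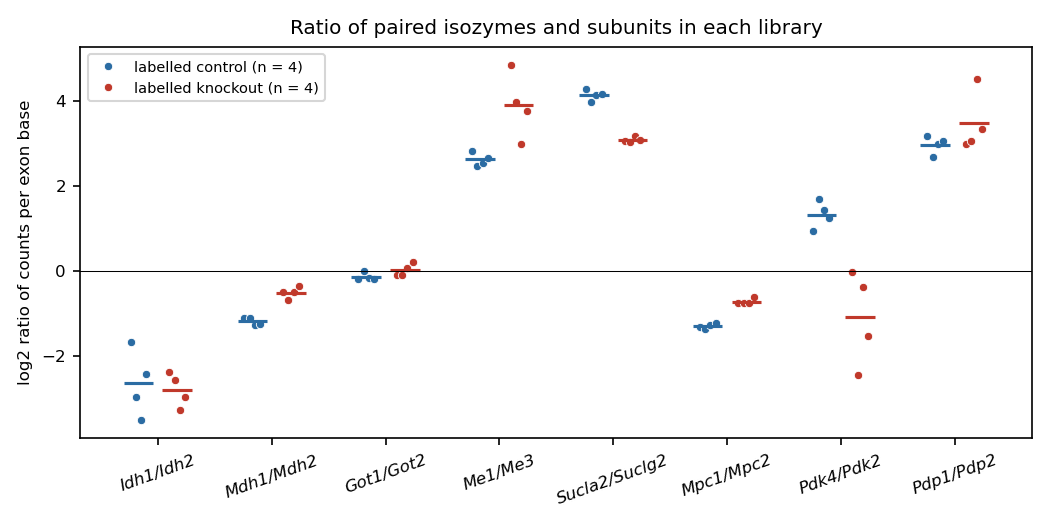
Log2 ratio of counts per exon base (y axis) of 8 gene pairs in each library, with 4 libraries per group and the mean as a line. The groups are apart for Mdh1/Mdh2, Me1/Me3, Sucla2/Suclg2, Mpc1/Mpc2 and Pdk4/Pdk2. They overlap for Idh1/Idh2, Got1/Got2 and Pdp1/Pdp2.

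Genes that refill the cycle or draw from it were divided. Of 9, 1 fell, 1 rose and 7 did not pass, where 21.1% and 23.6% of all genes were called lower and higher. The median log2 fold change was 0.30. Under library totals 1 was lower and 5 were higher, where most of all genes were called higher. The malic enzymes, which decarboxylate malate to pyruvate, differed from one another. Me2, the mitochondrial NAD-dependent enzyme, was at 4.69, 3.86, 3.94 and 4.16 CPM in the libraries labelled control and 10.3, 11.7, 11.3 and 13.3 CPM in those labelled knockout (log2 fold change 1.49, SE 0.12, edgeR adjusted p = 4.4e-06). Its counts were low, 55 to 66 per library labelled control and 248 to 334 per library labelled knockout, but the groups were apart. Me3, the mitochondrial NADP-dependent enzyme whose promoter window is printed above, was at 60.0, 70.8, 72.6 and 76.3 CPM in the libraries labelled control and 33.3, 29.1, 35.4 and 29 CPM in those labelled knockout (log2 fold change -1.14, SE 0.097, edgeR adjusted p = 6.2e-06), with no overlap.

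Me1, the cytosolic enzyme, was at 349, 321, 343 and 395 against 786, 377, 229.9 and 324 CPM (log2 fold change 0.29, SE 0.31, edgeR adjusted p = 0.45). Knockout replicate 1 stood far above the other 7 libraries, and without it the log2 fold change was -0.20. Pcx, pyruvate carboxylase, which makes oxaloacetate from pyruvate, was at 287, 183, 120.4 and 231 against 397, 288, 137 and 198 CPM (log2 fold change 0.31, SE 0.33, edgeR adjusted p = 0.44), and without knockout replicate 1 its log2 fold change was -0.0018. Pcx also changed side with the adipocyte covariate (-0.14). In both groups Pcx was lowest in replicate 3, where the adipocyte marker sum of the group was lowest.

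The genes that link the cycle to glutamate and aspartate did not pass with edgeR and TMM scaling. Glud1, glutamate dehydrogenase, was at 138, 170.3, 166 and 159 against 141, 128, 124 and 128 CPM (log2 fold change -0.28, SE 0.082, edgeR adjusted p = 0.013), with overlapping groups and a log2 fold change of 0.38 under library totals alone. Got1, the cytosolic aspartate aminotransferase, was at 317, 413, 342 and 314 against 387, 359.6, 493 and 470.2 CPM (log2 fold change 0.30, SE 0.13, edgeR adjusted p = 0.062). Got2, its mitochondrial partner, was at 415, 472, 439.8 and 409.9 against 468, 436, 538 and 463 CPM (log2 fold change 0.13, SE 0.087, edgeR adjusted p = 0.21). Got1 and Got2 both overlapped between groups. RLE factors and DESeq2 called Glud1 lower. Library totals alone called Glud1, Got1 and Got2 higher (0.38, 0.97 and 0.80, edgeR adjusted p = 0.0035, 5.9e-05 and 6.5e-06), as most of all genes were.

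Citrate export had the largest positive values of the list, and neither gene passed with edgeR, while DESeq2 called Acly (adjusted p = 0.0073) and not Slc25a1 (0.044). Slc25a1 carries citrate out of the mitochondrion, and ATP-citrate lyase, encoded by Acly, splits it into acetyl-CoA for lipid synthesis. Acly was at 121, 98.9, 21.8 and 244 CPM in the libraries labelled control and 1166, 982, 172 and 371 CPM in those labelled knockout (log2 fold change 2.47, SE 0.72, edgeR adjusted p = 0.014). Slc25a1 was at 38.5, 32.8, 3.65 and 58.3 CPM in the libraries labelled control and 276, 135, 37 and 84.3 CPM in those labelled knockout (log2 fold change 1.996, SE 0.72, edgeR adjusted p = 0.036). In both genes the groups overlapped, control replicate 3 was the lowest library and knockout replicate 1 the highest.

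Those 2 libraries were also the lowest and the highest in adipocyte markers, at 249 and 2591 CPM. With the mean log2 CPM of the markers as a covariate, the log2 fold change of Acly was 1.51 (edgeR adjusted p = 0.020) and that of Slc25a1 0.85 (0.052). Without control replicate 3 they were 2.12 (0.019) and 1.62 (0.039), and without knockout replicate 1 they were 2.03 (0.040) and 1.33 (0.12). Acly was called without control replicate 4 (3.06, edgeR adjusted p = 0.0085) and without knockout replicate 3 (2.74, 0.0075). The log2 fold change of Cs was -0.90 with the covariate and -0.89 without it.

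**Figure D4:**
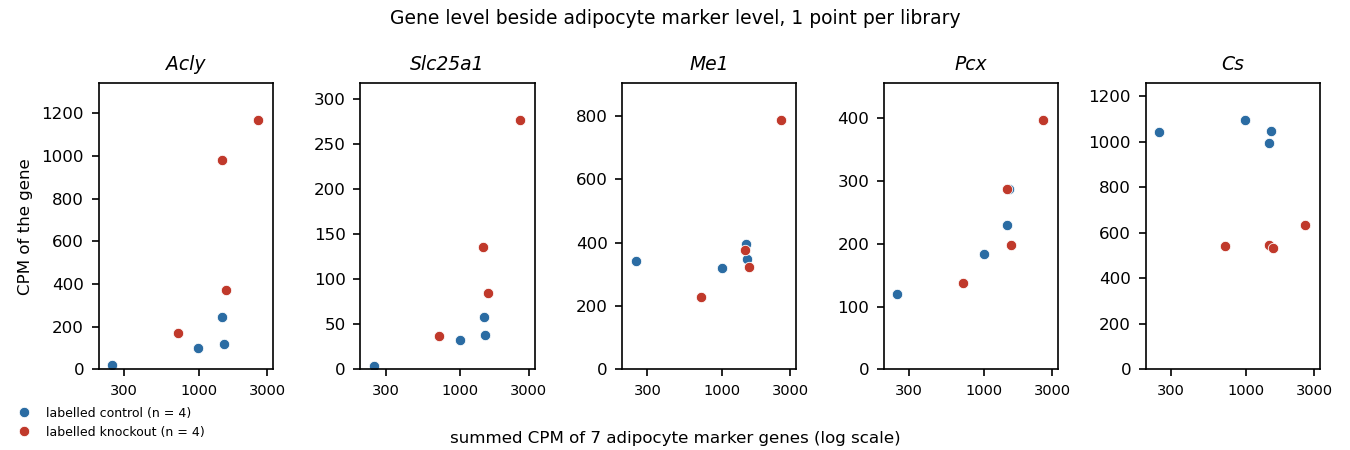
CPM of Acly, Slc25a1, Me1, Pcx and Cs (y axes, each from 0) against the summed CPM of 7 adipocyte markers (x axis, log scale), 1 point per library, 4 per group. Control replicate 3, at 249 CPM of markers, is lowest for Acly, Slc25a1 and Pcx, and knockout replicate 1, at 2591, is highest for those and for Me1. The Cs points fall into separate groups, 994 to 1094 against 535 to 633 CPM.

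Other genes of the pathway, from lists drawn up beside the 38, were described the same way. Of 19 further TCA cycle and pyruvate genes measured, 11 were lower, 3 were higher and 5 did not pass, with a median log2 fold change of -0.57. Under library totals 5 were lower and 6 higher, with a median of 0.11. Sdha, Sdhb, Sdhc and Sdhd, the subunits of succinate dehydrogenase, had log2 fold changes of -0.88, -0.46, -0.57 and -0.57 (edgeR adjusted p = 1.9e-05, 0.0015, 8.7e-05 and 4.8e-04) and were named for completing the cycle. Under library totals alone these values were -0.22, 0.21, 0.099 and 0.11, and none passed. Pck2, the mitochondrial phosphoenolpyruvate carboxykinase, which draws on oxaloacetate, was at 4.93, 6.55, 6.66 and 8 against 78.1, 69.6, 87.1 and 85.1 CPM (log2 fold change 3.60, SE 0.14, edgeR adjusted p = 8.1e-08). Every library labelled knockout stood far above those labelled control.

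Lactate and alanine are alternative fates of pyruvate. Lactate genes that passed lay on both sides, while the alanine gene that passed was lower. Ldha, the lactate dehydrogenase subunit of fast muscle, was at 4608, 3488, 3987 and 3333 against 1244, 1086, 1145 and 1111 CPM (log2 fold change -1.75, SE 0.12, edgeR adjusted p = 1.8e-06), and Gpt2, the mitochondrial alanine aminotransferase, had a log2 fold change of -1.49 (edgeR adjusted p = 1.1e-05). Ldhb, the subunit of heart and oxidative muscle, was at 39, 130.0, 73.5 and 85.6 against 179.5, 134, 187 and 192 CPM (log2 fold change 1.08, SE 0.29, edgeR adjusted p = 0.0094). Ldhd, the mitochondrial D-lactate dehydrogenase, had a log2 fold change of -1.69 and D2hgdh, which oxidises D-2-hydroxyglutarate, of -1.04 (edgeR adjusted p = 1.8e-06 and 1.4e-06). Ogdhl, a paralog of Ogdh, was low in level, at 1.13, 1.57, 0.787 and 2.21 against 3.17, 4.12, 3.47 and 4.05 CPM (log2 fold change 1.36, SE 0.27, edgeR adjusted p = 0.0015).

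The lipoic acid pathway, which makes the cofactor of Dlat and Dlst, had 1 of 7 genes lower, 1 higher and 5 that did not pass. Over all genes 21.1% were called lower and 23.6% higher. The median of the 7 was -0.25, and with library totals alone 5 were higher, where most of all genes were called higher. Of 6 measured carriers of the malate-aspartate shuttle and of dicarboxylates, 2 were lower and 2 were higher, and with library totals alone 4 were higher. Both that rose, Slc25a13 (log2 fold change 1.13) and Slc25a18, were under 1.5 CPM in every library, and Slc25a18 had at most 3 counts in each library labelled control.

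Of 10 genes listed for NADPH production and folate metabolism, isocitrate dehydrogenases and malic enzymes left out, 6 rose, 1 fell and 3 did not pass. The list is by pathway, and not every member makes NADPH. The median log2 fold change was 1.77, and with library totals alone 8 rose and none fell. The largest was Mthfd2, a mitochondrial folate enzyme, at 4.93, 4.84, 3.79 and 6.68 against 249.6, 184, 309 and 279.6 CPM (log2 fold change 5.65, SE 0.22, edgeR adjusted p = 8.1e-08). Mthfd1l, Pgd, Aldh1l2, Nnt and G6pdx had log2 fold changes of 4.21, 2.23, 2.02, 1.79 and 1.76 (edgeR adjusted p from 1.8e-07 to 0.0059). Of these, G6pdx and Pgd were lowest in their group in control replicate 3 and knockout replicate 3, as Acly was.

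Cytosolic lipogenesis genes were also spread widely between libraries. Of 9 genes, 1 rose (Acss2, 1.06), 1 fell and 7 did not pass, although the median log2 fold change was 1.27, and with library totals alone 4 rose and none fell. Their summed level was 2694, 2460, 875 and 4045 CPM in the libraries labelled control and 10576, 5587, 2174 and 6238 CPM in those labelled knockout, lowest in replicate 3 of each group.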

How the data were processed

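Poly(A) RNA of quadriceps femoris from 8 mice was sequenced by the authors on a NextSeq 500. Per the labels and the study's methods, reads were demultiplexed with bcl2fastq 2.20.0.422, trimmed with cutadapt, aligned with STAR 2.5.4b to GRCm38 and counted over exons without duplicate or multimapping reads, and genes under 50 reads were dropped (the lowest total in the table is 51). Read counts and FPKM were deposited by the authors. The FPKM values equal the deposited count divided by exon length and by 1 constant per library. Deposited columns of the authors' own DESeq2 1.32.0 comparison (fold changes and p-values) were not used. No per-sample column was left out.

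Counts were tested with edgeR 4.0.16 (glmQLFit and glmQLFTest, TMM scaling, R 4.3.3) on all 14012 genes with Benjamini-Hochberg adjustment, and no further filter. The SE of an edgeR log2 fold change was derived, as its absolute value divided by the square root of the quasi-likelihood F statistic. A floor of 3 counts corresponds to 0.189 to 0.242 CPM in the libraries labelled control and 0.119 to 0.137 CPM in those labelled knockout and covers counting error only. The log2 ratio of 8 gene pairs (prior count 2, per exon base) was tested by exact two-sided permutation over 70 assignments, adjusted over the pairs. Scripts were tested on simulated data. Per-library values were given for genes that passed with an absolute log2 fold change of at least 1, for genes that rose, for those that did not pass, for the kinase, phosphatase and carrier genes and for both genes of each pair. Genes of other lists could be named, though not all were, where they passed with an absolute log2 fold change of at least 1, and the Sdh genes were named outside that rule. The members and lists were chosen with earlier results of these data known. Alternatives were RLE factors, library totals, upper-quartile factors, filterByExpr, DESeq2 1.42.0, a replicate block, an adipocyte covariate, an adjusted p under 0.05, a prior count of 0.5 and each library left out. Promoters were taken from RefSeq, GRCm38.p6.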

Additional observations from a re-analysis of the deposited data

Results flagged for a closer look

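Values of single libraries that lay far from the other 3 of their group by Dixon's test numbered 4 of 76 groups tested, 2 in each condition. Chance gives about 1 in 20. Cs was highest in knockout replicate 1, at 633 CPM against 535 to 548 in the other 3, all of them below the libraries labelled control. Pdk3 was low in control replicate 1, at 0.727 CPM (9 counts), and high in knockout replicate 2, at 2.98 CPM (65 counts). Mpc1 was low in control replicate 2, at 97.5 CPM, against 102.5 to 103.5 in the other 3.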

How the results depend on the processing

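The 23 calls were kept under RLE factors, upper-quartile factors, filterByExpr, DESeq2 and the replicate block, and 22 of them in every fit with a library left out. The exception was Mpc1, kept in only 2 of those fits and also lost with the adipocyte covariate (edgeR adjusted p = 0.011). Library totals alone gave 7 lower and 14 higher of the 38 (873 and 8498 of all genes) and turned Idh3b (0.022), Ogdh (0.12), Dlst (0.14), Dld (0.19), Mdh1 (0.34), Dlat (0.19), Pdk1 (0.40), Pdp1 (0.61), Pdp2 (0.15), Mpc1 (0.32) and Glud1 (0.38). Of those that turned, Mdh1, Pdk1, Pdp1 and Glud1 were called higher under library totals. Cs, Idh3g, Fh1, Pdha1, Pdhx, Pdk2 and Mpc2 kept their direction there and were no longer called. An adjusted p under 0.05 gave 7 higher genes and added Mdh1, Dlat, Pdk1 and Glud1 on the lower side. The adipocyte covariate turned Aco1 (-0.059) and Pcx (-0.14). With a library left out, Pdp1 turned without control replicate 1 (0.022), knockout replicate 2 (0.0056) or knockout replicate 4 (0.00026), and Me1 (-0.20) and Pcx (-0.0018) turned without knockout replicate 1. Over all left-out fits Pdp1 ranged from -0.25 to 0.022, Me1 from -0.20 to 0.46 and Pcx from -0.0018 to 0.52. Left-out fits gave 18 to 21 genes lower and 4 to 6 higher.

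The 38 genes included 20 lower and 6 higher under the replicate block, which added Dlat (-0.51, edgeR adjusted p = 0.0088), Acly (2.59, 0.0020) and Slc25a1 (2.09, 0.0031) to the calls. RLE factors gave 23 lower and 4 higher, adding Mdh1, Dlat, Pdk1 and Glud1, and DESeq2 gave 23 and 6, adding Pdhb and Acly to these. Upper-quartile factors added Pdhb on the higher side. With library numbers as pairs, the pair ratios Mdh1/Mdh2 (0.68), Me1/Me3 (1.28), Sucla2/Suclg2 (-1.06), Mpc1/Mpc2 (0.57) and Pdk4/Pdk2 (-2.42) could not pass, since the smallest sign-flip p over 4 pairs is 0.125. Deviations from the group means of same-numbered libraries correlated at 0.118, 0.0031, 0.42 and 0.138. Control replicates 1, 3 and 4 correlated best with the knockout library of their own number and control replicate 2 with knockout replicate 1 (0.097), so 1 of the 4 was not over 0.1 and the numbers, which no label ties to a shared litter or day, were not taken as pairs. With a library left out the smallest exact p is 0.0571, so no ratio could pass, and the log2 differences were 0.62 to 0.73 for Mdh1/Mdh2, 0.96 to 1.58 for Me1/Me3, -1.11 to -1.01 for Sucla2/Suclg2, 0.54 to 0.59 for Mpc1/Mpc2, -2.77 to -1.97 for Pdk4/Pdk2 and -0.45 to 0.17 for Idh1/Idh2, which turned without control replicate 1 (0.17) or knockout replicate 3 (0.0053). The cause of these changes was not tested. Depth limits Pdk3 and Me2 most, since their libraries labelled control held 9 to 16 and 55 to 66 counts.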

Other observations

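In the group labelled control, replicate 1 was lowest for Idh2, at 62.5 CPM against 111 to 128 in the other 3. The same library was lowest for Ldhb, at 39.0 CPM against 73.5 to 130.0, and for Myh2, the fast oxidative myosin, at 252 CPM against 706 to 1617. It was not low for Idh3a, at 806 CPM against 794 to 857. These genes were chosen after their values were seen, and no test was made.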
